A study of Mus musculus with 19 samples.

Results

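Pancreatic lymph nodes (PLNs) of new onset diabetic mice (DIA, 2 arrays) were compared with PLNs of normoglycemic mice (NOR, 4 arrays), which the labels call normal. These 6 arrays were chosen by the tissue and group given in the labels, out of 19 arrays in the series. All mice were female nonobese diabetic (NOD/LtJx) mice, a strain that develops autoimmune diabetes spontaneously, kept on a standard diet and light-dark cycle. The labels name no agent for either group, and ages are not given. The study's methods describe insulin for diabetic mice, and whether the mice of these arrays received it is not stated. A further group of 4 PLN arrays from new onset diabetic mice given alpha1 antitrypsin (AAT), a circulating inhibitor of serine proteases, entered the fit so that 10 arrays set the spread, and its values are given beside some results as description. The labels do not say whether arrays of a group came from separate mice, so p-values measure the spread between arrays, which may be technical.

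The PLN drains the pancreas, and islet antigens carried there by dendritic cells are presented to T cells. A lymph node holds B cell follicles, in which germinal centres form when B cells divide and mutate their antibody genes, a T cell zone ordered by chemokines of reticular stroma, and high endothelial venules and lymphatic sinuses through which lymphocytes enter and leave. In the NOD mouse both T and B lymphocytes take part in the disease.

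RNA was measured on Affymetrix mouse expression arrays, and a signal is the brightness of a probe set after the authors' scaling of each array to the same trimmed mean. Of 45037 probe sets tested, 34945 named 1 gene, giving 18193 genes, each read on the brightest of its probe sets by mean signal. Changes are DIA minus NOR on the log2 scale, relative to the median change of all probe sets (-0.11), with the standard error (SE) and limma's Benjamini-Hochberg adjusted p over all probe sets, and the words rose and fell are kept for an adjusted p under 0.05. The 2 DIA arrays were less alike than the NOR arrays (log2 correlation 0.715 between them, 0.774 to 0.890 among NOR arrays), and DIA array 1 was the farther from NOR (0.639 to 0.688, against 0.710 to 0.841 for DIA array 2). The Gapdh 3'/5' probe ratio, a measure of RNA or amplification quality, was higher in both DIA arrays (10.8 in DIA array 1) than in NOR (5.55 to 8.01), while that of actin lay within the NOR range or just below it (1.10 and 0.881, NOR 0.940 to 2.31). The Gapdh ratio was highest in AAT arrays 2 and 4 (20.63 and 24.97), whose median signals were 92.3 and 94.1, against 179 to 265 in NOR. In AAT array 1 it lay within the NOR range and in AAT array 3 just above it. The actin ratio of every AAT array lay within the NOR range. AAT signals are given without correction for this. The median change rose with signal, from -0.52 in the second lowest of 10 equal bins of probe sets by mean signal to 0.16 in the highest, and the part of RNA quality and of DIA array 1 in the results below was not tested.

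Node markers were present in both groups. Cd3e, a chain of the T cell receptor complex, had a signal of 5489, 8979, 7190 and 5156 in NOR arrays 1 to 4 and of 3622 and 5802 in DIA arrays 1 and 2. Ms4a1, the B cell antigen CD20, had 7925, 4681, 5781 and 6149 in NOR and 5642 and 17527 in DIA. Both groups overlapped for each, and the node's stromal markers Glycam1 and Cxcl13, described below, were among the bright signals. Here and in all results below, fewer cells of a type and less RNA per cell cannot be told apart in RNA from whole nodes.

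Across all probe sets 25 were called, 5 higher in DIA (0.0111% of those tested) and 20 lower (0.0444%). By the thresholds of the study's methods, which ask for more than a 2-fold difference at p of 0.05 or less before adjustment, 4418 probe sets differed, 72.9% of them lower in DIA. Counted as 1 probe set per gene, these thresholds took 2.19% of all genes higher and 7.83% lower, both DIA arrays lay above every NOR array for 7.47% of genes, and both lay below every NOR array for 14.5%. Counts within gene groups are read against these shares. Of 821 listed genes measured in 39 gene lists, 5 had a called representing probe set, Vegfc, Ptn, Cadm3, Mup10 and Fmn2, so the other members are described by their values and by the study's thresholds.

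**Figure D1:**
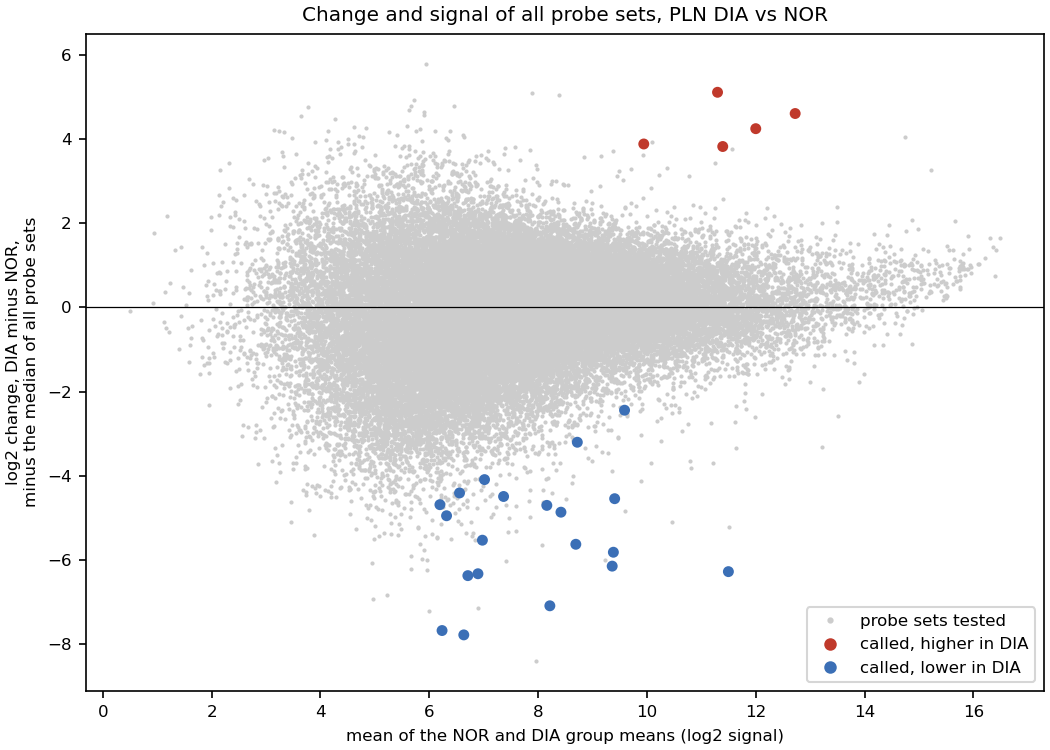
Each point is 1 of 45037 probe sets, with the mean of the NOR and DIA group means (log2 signal) on the horizontal axis and the log2 change, DIA minus NOR minus the median of all probe sets, on the vertical axis. The 5 called probe sets higher in DIA are in red and the 20 lower in blue, and the called lower probe sets reach larger changes at lower mean signals.

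The immunoglobulin mu heavy chain gene Ighm, which encodes the constant part of IgM, held 4 of the 5 called higher probe sets. On probe set 1427870_x_at its signal was 363, 612, 375 and 473 in NOR arrays 1 to 4, 9275 and 21802 in DIA arrays 1 and 2, and 18708, 24463, 44548 and 8737 in AAT arrays 1 to 4. Every DIA and AAT array lay far above every NOR array. Ighm rose there by 5.11 (SE 0.53, adjusted p = 0.000477), by 4.60 (SE 0.54, adjusted p = 0.00142) on 1427869_at, by 4.24 (adjusted p = 0.0197) on 1425247_a_at and by 3.82 (adjusted p = 0.0258) on 1427756_x_at.

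The probe sets of Ighm did not move alike. On its probe set with the highest mean, 1427351_s_at, signals were 6227, 5452, 5959 and 5865 in NOR and 6587 and 16647 in DIA, a change of 0.95 (SE 0.60, adjusted p = 0.706). DIA array 1 stood just above the NOR arrays and DIA array 2 well above them, and without DIA array 2 the change was -0.053. Among the other 6 of the gene's 11 probe sets the changes ran from -0.11 to 3.75, the last at an adjusted p of 0.0515. NOR arrays 1 to 4 therefore differed from the DIA arrays strongly on 5 Ighm probe sets and little on the one that read brightest in NOR. The fifth called higher probe set, 1442544_at, names no gene, and its signals were 468, 265, 215 and 189 in NOR and 1871 and 7048 in DIA (3.88, adjusted p = 0.0152). For all 5 called higher probe sets, all 4 AAT arrays also lay above the highest NOR array.

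**Figure D2:**
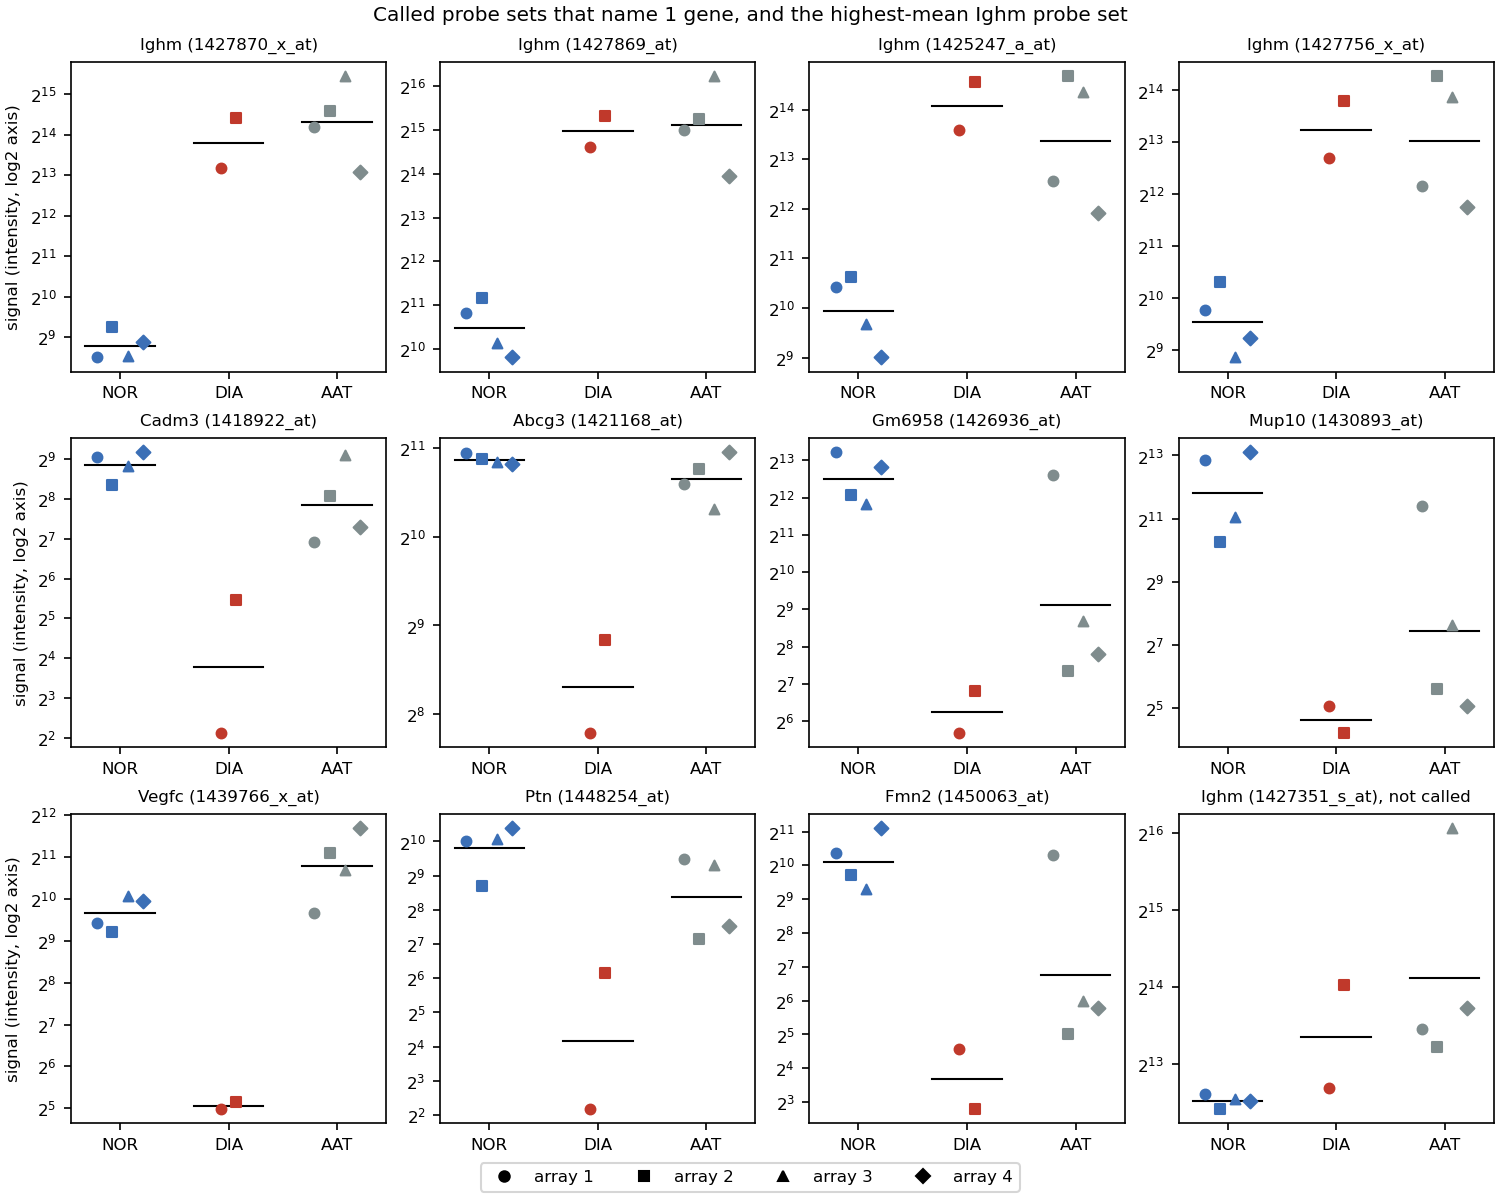
Signals (log2 axis) in each PLN array of the NOR, DIA and AAT groups for the called probe sets that name 1 gene and, last, the highest-mean Ighm probe set, which was not called; marker shapes give the array number and bars the mean of the log2 signals. On the 4 called Ighm probe sets the DIA and AAT arrays lie above all NOR arrays, Vegfc and Abcg3 are low in DIA alone, and for Mup10, Fmn2 and Gm6958 AAT array 1 lies apart from the other AAT arrays.

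No other immunoglobulin or plasma cell gene was called, and they lay on both sides. Jchain, the joining chain that links IgM or IgA units, had signals of 4241, 2594, 2620 and 2410 in NOR and 5125 and 10937 in DIA (1.49, SE 0.45, adjusted p = 0.280). Igk, the kappa light chain, had 15540, 21334, 19291 and 18015 in NOR and 37141 and 36710 in DIA (1.12, SE 0.59, adjusted p = 0.604). Both genes were above every NOR array in both DIA arrays, though another probe set of Igk gave -0.12. Mzb1, a chaperone of antibody-secreting cells, differed by 1.66 (SE 0.67) with overlapping arrays, and Sec11c, a signal peptidase subunit, by -0.81 (SE 0.44), with both DIA arrays below all NOR arrays. Of 16 plasma cell and immunoglobulin genes measured, 2 passed the study's thresholds higher and none lower, 4 had both DIA arrays above all NOR arrays and 2 had both below, and the median change was 0.61, against -0.04 for all genes.

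Germinal centre genes were the group with the largest share of members past the study's thresholds in the higher direction, 5 of 15 (33.3%, against 2.19% of all genes), with 1 of 15 lower and a median change of 0.93. Rgs13, a regulator of G protein signalling of germinal centre B cells, had signals of 170, 55.7, 65.8 and 80.1 in NOR and 421 and 1367 in DIA (3.29, SE 0.70, adjusted p = 0.110). Mybl1, a transcription factor of dividing germinal centre B cells, had 254, 183, 128 and 260 in NOR and 433 and 1780 in DIA (2.26, SE 0.68, adjusted p = 0.265), with 2.91 on its other probe set. Neil1, a DNA glycosylase of base excision repair, had 360, 508, 299 and 327 in NOR and 1082 and 1169 in DIA (1.73, SE 0.50, adjusted p = 0.255). For these 3 genes both DIA arrays stood above all NOR arrays, and Rgs13 and Mybl1 were several-fold higher in DIA array 2 than in DIA array 1. Gcsam, a signalling adaptor of germinal centre B cells, differed by 2.20 (SE 0.66) but by -1.20 on its other probe set. Efnb1, an ephrin ligand, differed by 1.40 (SE 0.55) but by -0.92 on another probe set. The member lower by the thresholds was Gcnt3, a glycan-branching enzyme (-2.72, SE 1.21), whose 2 other probe sets went the other way, by up to 1.21. The list's level stood 1.09 above the NOR mean in DIA array 2, beyond the NOR range of -0.23 to 0.30. In DIA array 1 it stood 0.29 above, at the top of that range, and without DIA array 2 the median was 0.22. Member by member, both DIA arrays lay above all NOR arrays for 8 of 15, against 7.47% of all genes, and below them for 1.

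Among B cell lineage genes, Pou2af1, the coactivator of octamer-binding factors in B cells, had signals of 2933, 3908, 3717 and 3248 in NOR and 8307 and 16460 in DIA (1.88, SE 0.40, adjusted p = 0.125). Cr2, the complement receptor of B cells and follicular dendritic cells, had 1937, 2252, 2134 and 2415 in NOR and 3790 and 7164 in DIA (1.37, SE 0.40, adjusted p = 0.264). Both were higher in each DIA array than in any NOR array. Fcrla, an intracellular Fc receptor-like protein of B cells, was instead below them (-1.20, SE 0.46, adjusted p = 0.320), with 0.60 on another probe set. Of 25 members 2 passed the thresholds higher and 1 lower, and the median of 0.38 turned to -0.37 without DIA array 2. The octamer ATTTGCAT, searched on both strands from 250 bases before to 50 after the RefSeq gene starts, occurred in the promoter of 1 of 19 members with a promoter sequence, and in 1.97% of 27025 genes.

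Cxcl13, the chemokine that draws B cells into follicles, had signals of 5779, 5694, 5827 and 7034 in NOR and 10804 and 16596 in DIA (1.26, SE 0.54, adjusted p = 0.490), both DIA arrays above every NOR array. On its other probe set, about as bright, the change was 0.34, with 4472, 4195, 6282 and 6460 in NOR and 3258 and 11655 in DIA. There DIA array 1 was the lowest of the 6 arrays and DIA array 2 the highest. Of 9 follicular dendritic cell genes 2 passed the thresholds higher, none lower, with a median of 0.24.

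Among replication genes, the helicase subunits themselves were divided. The MCM proteins form the ring-shaped helicase that opens DNA at replication origins. Mcm5 had signals of 1455, 1906, 4376 and 3364 in NOR and 8198 and 13409 in DIA (2.16, SE 0.49, adjusted p = 0.137), with 2.44 and 1.42 on its other probe sets. Mcm3 had 1121, 1782, 2579 and 1528 in NOR and 5086 and 6885 in DIA (1.93, SE 0.45, adjusted p = 0.155), while its other probe sets gave 2.10, 1.36, 0.06 and -0.01. Mcm2 had 355, 317, 475 and 333 in NOR and 909 and 1704 in DIA (1.88, SE 0.49, adjusted p = 0.195). These 3 subunits were higher in both DIA arrays than in any NOR array, whereas the signals of Mcm4, Mcm6 and Mcm7 overlapped between the groups. Lig1, the ligase that seals Okazaki fragments, differed by 1.37 (SE 0.48), and Tyms, which makes thymidylate, by -3.83 (SE 0.96, adjusted p = 0.153), although 2 of its 3 other probe sets gave 0.88 and 0.72. Of 33 replication genes 4 passed the thresholds higher (12.1%) and 1 lower (3.03%), 9 had both DIA arrays above NOR, and the median of 0.28 came from DIA array 2 (level 1.05, against -0.45 in DIA array 1 and -0.26 to 0.31 in NOR).

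The E2F factors switch on replication genes at the start of DNA synthesis. Their consensus TTTCCCGC, on either strand, occurred in the promoter window of 5 of 29 replication genes with a sequence (17.2%) and of 334 of all 27025 genes (1.24%). The Mcm3 promoter is shown because it is the member with the smallest p that holds the site, in capitals (GRCm38.p6, chr1:20820263-20820562, minus strand, from RefSeq). A match describes these letters only.
Mcm3: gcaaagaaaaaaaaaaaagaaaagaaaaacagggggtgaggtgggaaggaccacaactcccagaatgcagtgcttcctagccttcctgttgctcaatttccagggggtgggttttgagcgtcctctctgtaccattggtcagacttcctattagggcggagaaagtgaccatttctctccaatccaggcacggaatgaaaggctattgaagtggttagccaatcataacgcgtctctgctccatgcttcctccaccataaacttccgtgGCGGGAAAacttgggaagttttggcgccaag

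Mitotic genes showed a similar balance, with 6 of 31 past the thresholds higher (19.4%), 1 lower and a median of 0.75. Cdc20, the activator of the anaphase-promoting complex, had signals of 779, 301, 1052 and 1075 in NOR and 1946 and 2601 in DIA (1.76, SE 0.53, adjusted p = 0.273). Nek2, a centrosomal kinase, had 295, 103, 306 and 270 in NOR and 605 and 875 in DIA (1.81, SE 0.67, adjusted p = 0.395), but -2.99 on another probe set. Ccna2, cyclin A, differed by 1.26 (SE 0.46), and the spindle and kinetochore genes Mad2l1, Cenpf and Cenpe by 1.23, 1.45 and 1.74. Each of these 6 had both DIA arrays above all NOR arrays. Ndc80, another kinetochore gene, went the other way (-1.84, SE 0.89). The list's median without DIA array 2 was 0.13.

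**Figure D3:**
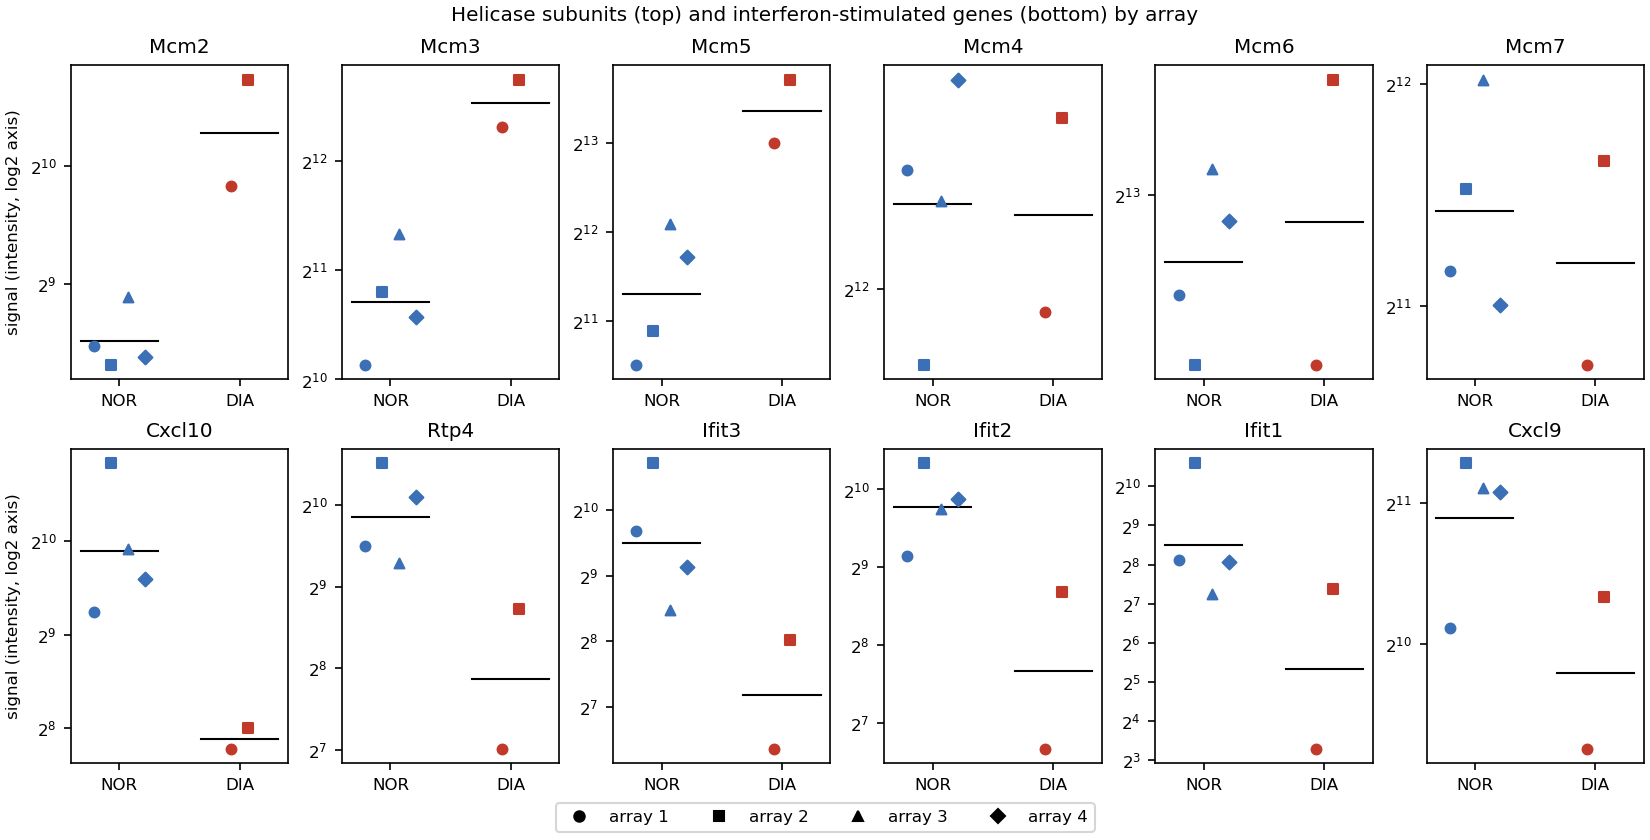
Signals (log2 axis) by NOR and DIA array for 6 MCM helicase subunits in the top row and 6 interferon-stimulated genes in the bottom row; marker shapes give the array number and bars the mean of the log2 signals. Both DIA arrays lie above all NOR arrays for Mcm2, Mcm3 and Mcm5 but not for Mcm4, Mcm6 and Mcm7, and NOR array 2 is the highest of the arrays drawn for all 6 interferon-stimulated genes.

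Among the genes that fell, Vegfc encodes the growth factor of lymphatic endothelium. Its signal was 686, 592, 1082 and 994 in NOR arrays 1 to 4, 31.5 and 35.6 in DIA arrays 1 and 2, and 814, 2173, 1655 and 3301 in AAT arrays 1 to 4. Both DIA arrays lay far below all others, and the AAT arrays lay in or above the NOR range. Vegfc fell by 4.49 (SE 0.57, adjusted p = 0.00158). Its 2 dimmer probe sets gave -1.38, with 55.4, 61.3, 151 and 140 in NOR and 23.8 and 44.9 in DIA, and -0.83, on which the groups overlapped.

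Of the other ligands and receptors of vessel growth, Ptn alone was called. Ptn, pleiotrophin, a heparin-binding growth factor, had 1043, 415, 1076 and 1344 in NOR and 4.50 and 70.6 in DIA, and fell by 5.53 (SE 0.94, adjusted p = 0.0258), with -3.73 and 0.63 on its other probe sets. Vegfa, which acts on blood endothelium, had 376, 259, 432 and 449 in NOR and 37.9 and 171 in DIA (-2.09, SE 0.70, adjusted p = 0.269). Vegfd, the relative of Vegfc, had 748, 233, 333 and 515 in NOR and 134 and 114 in DIA (-1.64, SE 0.73, adjusted p = 0.422). For all 3 both DIA arrays lay below the lowest NOR array. Among the receptors, Kdr, which binds Vegfa, had 426, 695, 390 and 295 in NOR and 87.9 and 122 in DIA (-1.94, SE 0.67, adjusted p = 0.287). Flt4, the receptor of Vegfc, overlapped, with 1001, 1801, 1135 and 909 in NOR and 1650 and 484 in DIA. Thus 5 of 16 members of this list passed the thresholds lower (31.3%, against 7.83% of all genes) and none higher. These 5 include the called genes Vegfc and Ptn. The list was chosen with earlier results of these data known, so this share is not separate from their calls. The list's level was -0.60 and -0.70 in the 2 DIA arrays, below the NOR range of -0.20 to 0.20. The summed signal, which the brightest members set, went the other way, at 14513 to 18130 in NOR and 21159 and 19587 in DIA, and 1 member had both DIA arrays above all NOR arrays. The list median was -0.22, and -0.74 or -0.67 without DIA array 1 or 2.

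Most markers of the node's blood vessels lay on the same side, 17 of 24 below the median change of all probe sets and 7 above it. Over all 18193 genes 9408 lay below it. Aplnr, the apelin receptor of endothelium, had signals of 2438, 608, 1434 and 1954 in NOR, 518 and 5.26 in DIA, and 7877, 1689, 7786 and 7703 in AAT (-4.66, SE 1.11, adjusted p = 0.132). Tek, the angiopoietin receptor, had 669, 196, 478 and 332 in NOR and 12.6 and 187 in DIA (-2.86, SE 0.86, adjusted p = 0.223). Selp, P-selectin, had 394, 56.3, 111 and 394 in NOR and 19.4 and 22.1 in DIA (-2.98, SE 1.05, adjusted p = 0.302). The groups did not overlap for these, although the lowest NOR array lay just above the higher DIA array for Aplnr and Tek. Glycam1, the L-selectin ligand made by high endothelial venules, had 51028, 34915, 29866 and 59954 in NOR and 19872 and 23152 in DIA (-0.87, SE 0.45, adjusted p = 0.469). Of 24 blood and high endothelial genes 5 passed the thresholds lower (20.8%) and none higher, with a median of -0.49, but the list's level was 0.11 in DIA array 1 and -0.88 in DIA array 2, and without DIA array 2 the median was 0.04.

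Lymphatic genes had the lower median, -0.60 over 19 members, of which 2 passed the thresholds lower and 4 had both DIA arrays below all NOR arrays. Stab2, a hyaluronan scavenger receptor of sinus endothelium, had signals of 739, 864, 694 and 528 in NOR and 445 and 68.4 in DIA (-1.88, SE 0.72, adjusted p = 0.336). Its relative Stab1 had 657, 549, 764 and 613 in NOR and 317 and 104 in DIA (-1.71, SE 0.70, adjusted p = 0.382). Both were lowest in DIA array 2. The defining lymphatic markers overlapped between the groups, with Prox1 at 206, 432, 214 and 161 in NOR and 443 and 100 in DIA, and Lyve1 at 649, 2090, 1106 and 716 in NOR and 755 and 486 in DIA.

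**Figure D4:**
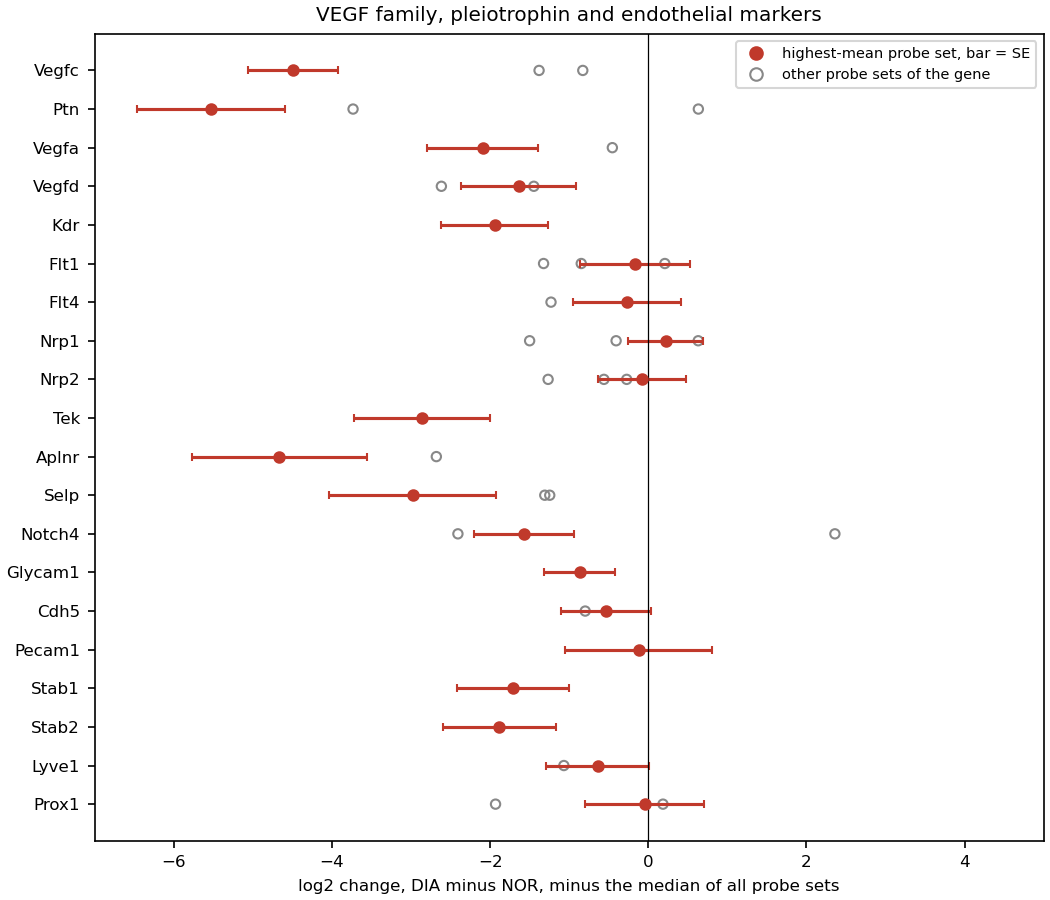
The log2 change, DIA minus NOR minus the median of all probe sets, of VEGF family members, pleiotrophin and endothelial markers; filled red points are each gene's brightest probe set by mean signal, with its SE, and open circles its other probe sets. Vegfc and Ptn lie farthest below 0 among the ligands, Aplnr among the endothelial markers, and the other probe sets of Ptn and Notch4 lie on both sides of 0.

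Among reticular stroma genes, Ch25h, the hydroxylase that makes a guidance oxysterol for B cells, had signals of 562, 830, 664 and 1664 in NOR and 54.1 and 325 in DIA (-2.56, SE 0.70, adjusted p = 0.174), and Pdgfra, a platelet-derived growth factor receptor of fibroblasts, differed by -1.02 (SE 0.53). Both DIA arrays lay below every NOR array for each, while another probe set of Pdgfra gave 0.70. The list of 19 had 1 member past the thresholds higher, Cxcl13, and 2 lower, with a median of -0.33. Of 29 matrix and fibroblast genes 5 passed lower (17.2%) and none higher, with a median of -0.30 and a level of -0.06 in DIA array 1, inside the NOR range of -0.21 to 0.28, and of -0.68 in DIA array 2. Those lower included Fn1, fibronectin, with 2673, 3082, 4317 and 3218 in NOR and 1453 and 1167 in DIA (-1.22, SE 0.46, adjusted p = 0.305), the collagen gene Col6a1 (-1.25) and Eln, elastin (-0.96).

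The other genes that fell formed a pattern across arrays. Mup10, a major urinary protein, had signals of 7357, 1229, 2120 and 8805 in NOR, 33.2 and 18.2 in DIA, and 2705, 48.1, 199 and 33.5 in AAT, and fell by 7.09 (SE 1.20, adjusted p = 0.0262). Fmn2, an actin-nucleating formin, had 1315, 832, 626 and 2198 in NOR, 23.6 and 6.91 in DIA and 1267, 32.2, 63.6 and 54.8 in AAT, and fell by 6.33 (SE 1.12, adjusted p = 0.0355). Gm6958, a predicted gene, fell by 6.14 (SE 0.95, adjusted p = 0.0152) on one probe set, from 9559, 4344, 3610 and 7307 in NOR to 50.8 and 111 in DIA, and differed by -3.31 (adjusted p = 0.0662) on its brightest. NOR arrays 1 and 4 were the highest NOR arrays for each, and AAT array 1 alone among the AAT arrays lay within the NOR range.

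The same order held for most called lower probe sets. Of 20, NOR arrays 1 and 4 were the 2 highest NOR arrays in 14, against 38.0% of all probe sets. AAT array 1 was the highest AAT array in 15. At most 1 AAT array reached the lowest NOR array in 16, a count that includes Abcg3, described below. The shares of all probe sets for these 2 AAT counts were not taken. AAT array 1 had the highest median signal of the AAT arrays (178), and every NOR array had a higher one (179 to 265). Only Vegfc had all 4 AAT arrays at or above the lowest NOR array. Of the 20, 11 name no gene and 2 name several. The largest signal among the unnamed was that of 1420310_at, with 52367, 11976, 17826 and 43757 in NOR and 250 and 400 in DIA. In 6 of the 20 both DIA signals were under the 20th percentile of their own array, where a signal carries little information.

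Abcg3, a transporter of the ABC family, differed from this order. It had signals of 1963, 1867, 1834 and 1804 in NOR, 221 and 457 in DIA, and 1540, 1728, 1272 and 1975 in AAT. The NOR arrays lay within a narrow range, the AAT arrays near it, and both DIA arrays far below. Abcg3 fell by 2.44 (SE 0.44, adjusted p = 0.0345), and its other probe set gave -0.18. Cadm3, a nectin-like adhesion molecule of neural cells, had 530, 324, 454 and 578 in NOR and 4.32 and 44.1 in DIA, and fell by 4.95 (SE 0.91, adjusted p = 0.0406).

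When every signal under 101, the 20th percentile of NOR array 1, was set to 101, a choice made after seeing the data, 48 probe sets were called, 40 of them higher, and 3 of the 25 were among them. Abcg3 (adjusted p = 0.0230) and Ighm on 1427870_x_at (adjusted p = 0.0354) kept their calls, while Vegfc gave -3.01 (adjusted p = 0.116), Ptn -3.14 (adjusted p = 0.221), Cadm3 -2.19 (adjusted p = 0.264), Mup10 -5.16 (adjusted p = 0.264) and Fmn2 -3.46 (adjusted p = 0.313). With any 1 of the 10 PLN arrays left out, Ighm on 1427870_x_at and 1427869_at and Vegfc stayed called (highest adjusted p 0.00676, 0.0245 and 0.0357), whereas every other called gene and the 2 other Ighm probe sets lost the call when NOR array 1, DIA array 1 or AAT array 3 was left out, each on its own (highest adjusted p 0.197, for Cadm3). When the fit let no trend of spread with signal enter, none of the 25 was called.

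Below these, the genes with the smallest p whose arrays did not overlap and whose adjusted p missed the threshold included Rnf144b, a ubiquitin ligase (951, 817, 1064 and 716 in NOR, 92.1 and 148 in DIA, -2.80, SE 0.54, adjusted p = 0.0515). Sned1, an extracellular matrix protein (-5.08), Rfng, a glycosyltransferase acting on Notch (-2.95), Lrrc4, a leucine-rich repeat membrane protein (-2.83), Casp14, the caspase of cornifying epidermis (-5.98), Saa4, a serum amyloid protein (-5.50), and Susd5, Zfp980 and Speer4cos (-5.00, -4.56 and -6.01) had adjusted p of 0.0515 to 0.0662. Other probe sets of Saa4, Susd5, Rnf144b, Lrrc4 and Rfng went the opposite way, by 1.44, 1.54, 1.11, 0.83 and 0.40, with the groups overlapping on each. Sned1 was dim in DIA (21.0 and 11.2), and with signals under 101 set to 101 its change was -2.47 and it was called (adjusted p = 0.0354). In the higher direction they were led by Grap, an adaptor of lymphocyte receptor signalling, with 272, 525, 631 and 394 in NOR and 2630 and 6019 in DIA (3.31, SE 0.62, adjusted p = 0.0592), and by Trim2, a ubiquitin ligase, with 951, 1136, 1171 and 1246 in NOR and 6014 and 4644 in DIA (2.35, SE 0.44, adjusted p = 0.0655). Both DIA arrays stood several-fold above the NOR arrays for both. Tbrg3 (3.01), the cochaperone gene Dnajc17 (2.88), the beta globin gene Hbb-b2 (3.25), the general transcription factor gene Gtf2a1 (2.38), Ptms, parathymosin (2.36), and Epsti1, an interferon-inducible gene (1.97), followed at adjusted p of 0.0744 to 0.148. Other probe sets of Trim2, Gtf2a1, Ptms and Dnajc17 gave as low as -0.78, -1.02, -0.38 and -0.12, with the groups overlapping on each. Further ones of Trim2, Gtf2a1 and Dnajc17 gave up to 0.91, 1.39 and 0.78. All other probe sets of Epsti1 and Hbb-b2 were higher in DIA.

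Listed interferon-stimulated genes, unlike Epsti1, which is not on the list, tended to lower values in DIA. Cxcl10, a chemokine that draws activated T cells, had signals of 605, 1822, 965 and 772 in NOR, 219 and 256 in DIA, and 211, 250, 208 and 301 in AAT (-1.90, SE 0.57, adjusted p = 0.214). Every DIA array and every AAT array lay below every NOR array. Ifit3, an antiviral RNA-binding complex member, had 823, 1687, 358 and 565 in NOR and 81.7 and 259 in DIA (-2.21, SE 0.73, adjusted p = 0.262). Its partner Ifit2 had 564, 1292, 860 and 943 in NOR and 102 and 409 in DIA (-1.99, SE 0.67, adjusted p = 0.270). Ifit1, which binds foreign RNA caps, had 275, 1540, 152 and 269 in NOR and 9.73 and 167 in DIA (-3.06, SE 1.08, adjusted p = 0.303). Among the NOR and DIA arrays NOR array 2 was the highest for all 4, and DIA array 1 was lower than DIA array 2. Rtp4, a chaperone induced by interferon, differed by -1.86 (SE 0.59) and Cxcl9, the interferon gamma-induced relative of Cxcl10, by -0.99 (SE 0.49), with DIA array 2 inside the NOR range for Cxcl9. Of 37 members 6 passed the thresholds lower (16.2%, against 7.83% of all genes) and none higher, 9 had both DIA arrays below all NOR arrays, and the median was -0.38, or -0.19 without NOR array 2. The list's level in DIA (-0.71 and -0.11) reached into its NOR range of -0.55 to 0.78.

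Interferon acts through factors that bind a GAAA-repeat element. The core GAAANNGAA, on either strand, occurred in the promoter windows of 17 of 26 interferon-stimulated members with a RefSeq sequence (65.4%) and of 2638 of 27025 genes (9.76%). The promoters of Cxcl10 (GRCm38.p6, chr5:92348840-92349139, minus strand, 1 match starting at -213 from the gene start), Ifit3 (chr19:34583279-34583578, plus strand, 3 matches, the first at -155) and Ifit1 (chr19:34640639-34640938, plus strand, 3 matches, the first at -109) are shown because these members had the smallest p among those holding the core, which is in capitals. Both DIA arrays lay below every NOR array for Cxcl10 and Ifit3, whose promoters follow, while Ifit1 in DIA array 2 lay within the NOR range.
Cxcl10: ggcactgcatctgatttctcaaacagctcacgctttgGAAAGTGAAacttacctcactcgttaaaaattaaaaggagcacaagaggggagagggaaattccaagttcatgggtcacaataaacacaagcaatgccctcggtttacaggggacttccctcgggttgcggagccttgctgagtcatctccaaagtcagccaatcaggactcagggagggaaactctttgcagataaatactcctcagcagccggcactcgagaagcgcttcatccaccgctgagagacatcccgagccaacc
Ifit3: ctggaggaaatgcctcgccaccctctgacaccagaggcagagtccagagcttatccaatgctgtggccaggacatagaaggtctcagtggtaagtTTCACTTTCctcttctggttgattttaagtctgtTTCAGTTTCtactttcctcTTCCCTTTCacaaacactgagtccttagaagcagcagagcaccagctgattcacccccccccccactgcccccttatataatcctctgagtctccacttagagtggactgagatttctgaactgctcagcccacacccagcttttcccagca
Ifit1: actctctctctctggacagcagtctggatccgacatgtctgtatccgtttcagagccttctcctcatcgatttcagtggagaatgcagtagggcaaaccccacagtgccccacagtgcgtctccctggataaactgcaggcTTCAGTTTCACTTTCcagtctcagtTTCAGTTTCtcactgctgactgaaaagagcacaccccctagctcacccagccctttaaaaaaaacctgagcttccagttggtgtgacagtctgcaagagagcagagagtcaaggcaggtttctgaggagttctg

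T cell genes showed smaller differences. Cd3g had signals of 4533, 4931, 5902 and 5042 in NOR and 1756 and 4065 in DIA (-0.81, SE 0.41, adjusted p = 0.459), both DIA arrays below NOR. Cd4, the coreceptor of helper T cells, had 1420, 3786, 2293 and 2554 in NOR and 1796 and 1965 in DIA, and Cd8a, that of cytotoxic T cells, 2500, 5574, 5216 and 3778 in NOR and 3889 and 3827 in DIA. The groups overlapped for both coreceptors. Of 22 T cell receptor and coreceptor genes 2 passed the thresholds lower, the receptor segments Tcra (-3.60, SE 1.25, on signals of at most 165) and Trbv13-2 (-1.12, SE 0.53), none passed higher, and the median was -0.25.

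Ctla4, the inhibitory receptor of regulatory and activated T cells, had signals of 541, 998, 795 and 563 in NOR and 1852 and 3801 in DIA (2.03, SE 0.53, adjusted p = 0.199). Both DIA arrays lay above every NOR array, whereas Foxp3, the factor that defines regulatory T cells, overlapped at 684, 878, 686 and 592 in NOR and 745 and 287 in DIA. Ctla4 was the one of 14 regulatory T cell genes past the thresholds, and the list median was 0.59, or 0.17 without DIA array 2. Among 14 follicular helper genes the one past the thresholds was Cd200, a surface ligand that restrains myeloid cells, with signals of 1665, 1741, 2273 and 3414 in NOR and 618 and 1634 in DIA, with a list median of 0.10.

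Type 1 effector genes past the thresholds lay on both sides. Il12rb2, the interleukin receptor chain of type 1 helper cells, had signals of 943, 353, 305 and 439 in NOR and 40.4 and 144 in DIA (-2.48, SE 0.82, adjusted p = 0.262). Il2rb, the shared receptor chain of cytotoxic cells, had 264, 798, 536 and 535 in NOR and 2713 and 896 in DIA (1.77, SE 0.61, adjusted p = 0.352), with -0.56 on another probe set. Each of these had both DIA arrays on one side of all NOR arrays. Gzmk, a granzyme, differed by 1.36 (SE 0.61), and Ifng, interferon gamma itself, was dim and overlapped. Of 25 members 5 had both DIA arrays above all NOR arrays and 2 had both below. The list's level was 0.115 and 0.510 in DIA, above its NOR range of -0.120 to 0.0984, narrowly so in DIA array 1. The thresholds were passed by 1 member in each direction, with a median of 0.27. Of 38 cytokine and receptor genes 1 passed in each direction as well, with a median of 0.08.

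Myeloid genes were called in neither direction. Cd163, the haemoglobin scavenger receptor of tissue macrophages, had signals of 705, 637, 345 and 405 in NOR and 65.1 and 190 in DIA (-2.06, SE 0.61, adjusted p = 0.205). Tlr4, the receptor of bacterial lipopolysaccharide, differed by -1.53 (SE 0.70) on its brightest probe set and by -2.37 to 2.25 on others. Lyz2, lysozyme, had 16388, 30337, 24518 and 29690 in NOR and 41359 and 50671 in DIA (1.01, SE 0.47, adjusted p = 0.551). So 6 of 27 macrophage and monocyte genes had both DIA arrays above NOR and 6 had both below, 2 passed the thresholds lower and none higher, and the median was -0.22.

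Dendritic cell genes were similarly split. Fscn1, fascin, an actin bundler of mature dendritic cells, had signals of 9572, 6451, 9412 and 12908 in NOR and 26576 and 22581 in DIA (1.51, SE 0.48, adjusted p = 0.302). Itgax, CD11c, had 655, 701, 808 and 661 in NOR and 124 and 347 in DIA (-1.65, SE 0.59, adjusted p = 0.295), and Siglech, a lectin of plasmacytoid dendritic cells, differed by -1.36 (SE 0.66). For none of these 3 did the groups overlap. Of 21 members 1 passed the thresholds higher and 2 lower, with a median of -0.18. Among 16 class II presentation genes, H2-DMb2, a chain of the peptide editor of class II molecules, had 6495, 7476, 7376 and 4386 in NOR and 8699 and 23400 in DIA (1.29, SE 0.48, adjusted p = 0.407). H2-Aa, a class II chain, differed by 1.23 (SE 0.57) with overlapping arrays, and its probe sets ran from -2.80 to 1.25. One class II member passed higher and none lower, with a median of 0.40, or -0.04 without DIA array 2. Of 15 class I presentation genes none passed higher and 1 lower, with a median of -0.17.

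Tumour necrosis factor is a ligand that acts through NF-kB. Tnf had signals of 337, 233, 234 and 382 in NOR, 42.7 and 107 in DIA, and 24.5, 55.4, 36.0 and 88.8 in AAT (-1.98, SE 0.92, adjusted p = 0.453). Every DIA array and every AAT array lay below every NOR array. Of its receptors, Tnfrsf1a had 42.6, 580, 219 and 57.1 in NOR and 853 and 290 in DIA (2.02, SE 0.89, adjusted p = 0.484), overlapping, and Tnfrsf1b had 2708, 4958, 5180 and 3367 in NOR and 2920 and 3964 in DIA. Outside these receptors of Tnf, the listed Tnfrsf22, a decoy receptor of the same family, differed by -1.17 (SE 0.51). Another of its probe sets gave 0.99. Of 27 members of this ligand and receptor list 1 passed the thresholds higher and 2 lower, with a median of -0.01.

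Within NF-kB, the inhibitor gene Nfkbie had signals of 9951, 9748, 9002 and 21344 in NOR and 1490 and 6246 in DIA (-1.83, SE 0.52, adjusted p = 0.181). The kinase gene Ikbkb, which marks the inhibitors for destruction, had 8282, 3495, 5480 and 6488 in NOR and 764 and 3812 in DIA (-1.62, SE 0.57, adjusted p = 0.288). DIA array 1 was the lowest array for both. Map3k14, the kinase of the alternative NF-kB route, had 175, 275, 159 and 276 in NOR and 1341 and 464 in DIA (1.99, SE 0.70, adjusted p = 0.352) but -1.84 on another probe set, and the inhibitor gene Nfkbib differed by -1.76 on one probe set and 1.57 on the other. Of 15 members 1 passed the thresholds higher and 3 lower, with a median of 0.23.

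Markers of other tissue that a dissected node can carry differed between the 2 DIA arrays. Ctrb1, the acinar enzyme chymotrypsinogen, had signals of 41.3, 77.5, 14.0 and 69.4 in NOR, 3485 and 510 in DIA, and 261, 517, 19535 and 60.9 in AAT (5.10, SE 1.45, adjusted p = 0.223). Cela3b, an elastase, had 684, 209, 207 and 516 in NOR and 7592 and 384 in DIA (2.39, SE 1.54), and Ctrc differed by 2.20 but Amy1, an amylase, by -1.79. Among the NOR and DIA arrays Ctrb1, Cela3b and Ctrc were highest in DIA array 1, and Ctrb1 in AAT array 3 was higher still. Over 33 acinar and ductal genes the summed signal was 2818 to 7015 in NOR and 23763 and 3950 in DIA, 1 passed the thresholds in each direction, and the median of 1.07 turned to -0.20 without DIA array 1. No defining acinar marker was at 0, though Cela1 was as low as 3.99 in NOR and 7.51 in DIA.

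Islet genes, summed, were at 5015 to 8517 in NOR and 7592 and 2702 in DIA, with 1 of 21 past the thresholds higher, 2 lower and a median of 0.25. Those lower included Cpe, the prohormone-processing carboxypeptidase (-2.51, SE 0.70), which gave 1.44 on its other probe set. Ins2, insulin, was dim throughout, at 16.4 to 63.6 in NOR and 133 and 20.1 in DIA. Liver and urinary protein genes, which include Mup10, summed to 2648 to 10643 in NOR and 3499 and 639 in DIA, with none of 18 past the thresholds higher, 1 lower and a median of 0.06, but a level of 1.39 in DIA array 1 and of -1.27 in DIA array 2. Alb, albumin, did not follow Mup10, at 57.8, 185, 97.9 and 150 in NOR and 309 and 6.46 in DIA. Epidermal genes, which include Casp14, summed to 2777 to 6579 in NOR and 5179 and 1080 in DIA, with 3 of 22 lower by the thresholds, none higher and a median of -0.42. Krt14, a basal keratin, had 28.6, 43.9, 7.50 and 30.9 in NOR and 242 in DIA array 1, with DIA array 2 inside the NOR range.

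Nerve and Schwann cell genes, which include Cadm3 and Fmn2, summed to 9302 to 15299 in NOR and 9232 and 5968 in DIA, with 1 of 20 past the thresholds higher, 3 lower and a median of -0.66 that turned to 0.30 without DIA array 2. Muscle genes had 1 of 24 lower and none higher, a median of -0.42 and sums of 9603 to 11013 in NOR and 8450 and 6727 in DIA. Adipocyte genes had 1 of 22 lower, Car3, a carbonic anhydrase (-2.11, SE 0.80), none higher and a median of -0.02, with sums of 11455 to 15758 in NOR and 11162 and 14030 in DIA. Erythroid and platelet genes had 1 of 17 lower, none higher and a median of 0.27. Neutrophil granule genes summed to 1510 to 2981 in NOR and 7338 and 2010 in DIA, with 1 of 16 higher, S100a8, a calprotectin subunit (84.7, 49.7, 258 and 134 in NOR, 1661 and 211 in DIA, 2.54, SE 0.98), none lower and a median of 0.61. The median levels of the acinar, neutrophil, liver and islet lists lay above the NOR range in DIA array 1 (1.95, 1.64, 1.39 and 1.07). Those of the erythroid, muscle, nerve and adipocyte lists did so by less (0.63, 0.40, 0.37 and 0.21). In DIA array 2 the epidermal, liver, nerve, muscle and islet levels lay below the NOR range (-1.68, -1.27, -1.10, -0.64 and -0.61). The DIA arrays thus lay on opposite sides of NOR for the liver, islet, nerve and muscle lists. The part of these lists in the calls was not tested.

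**Figure D5:**
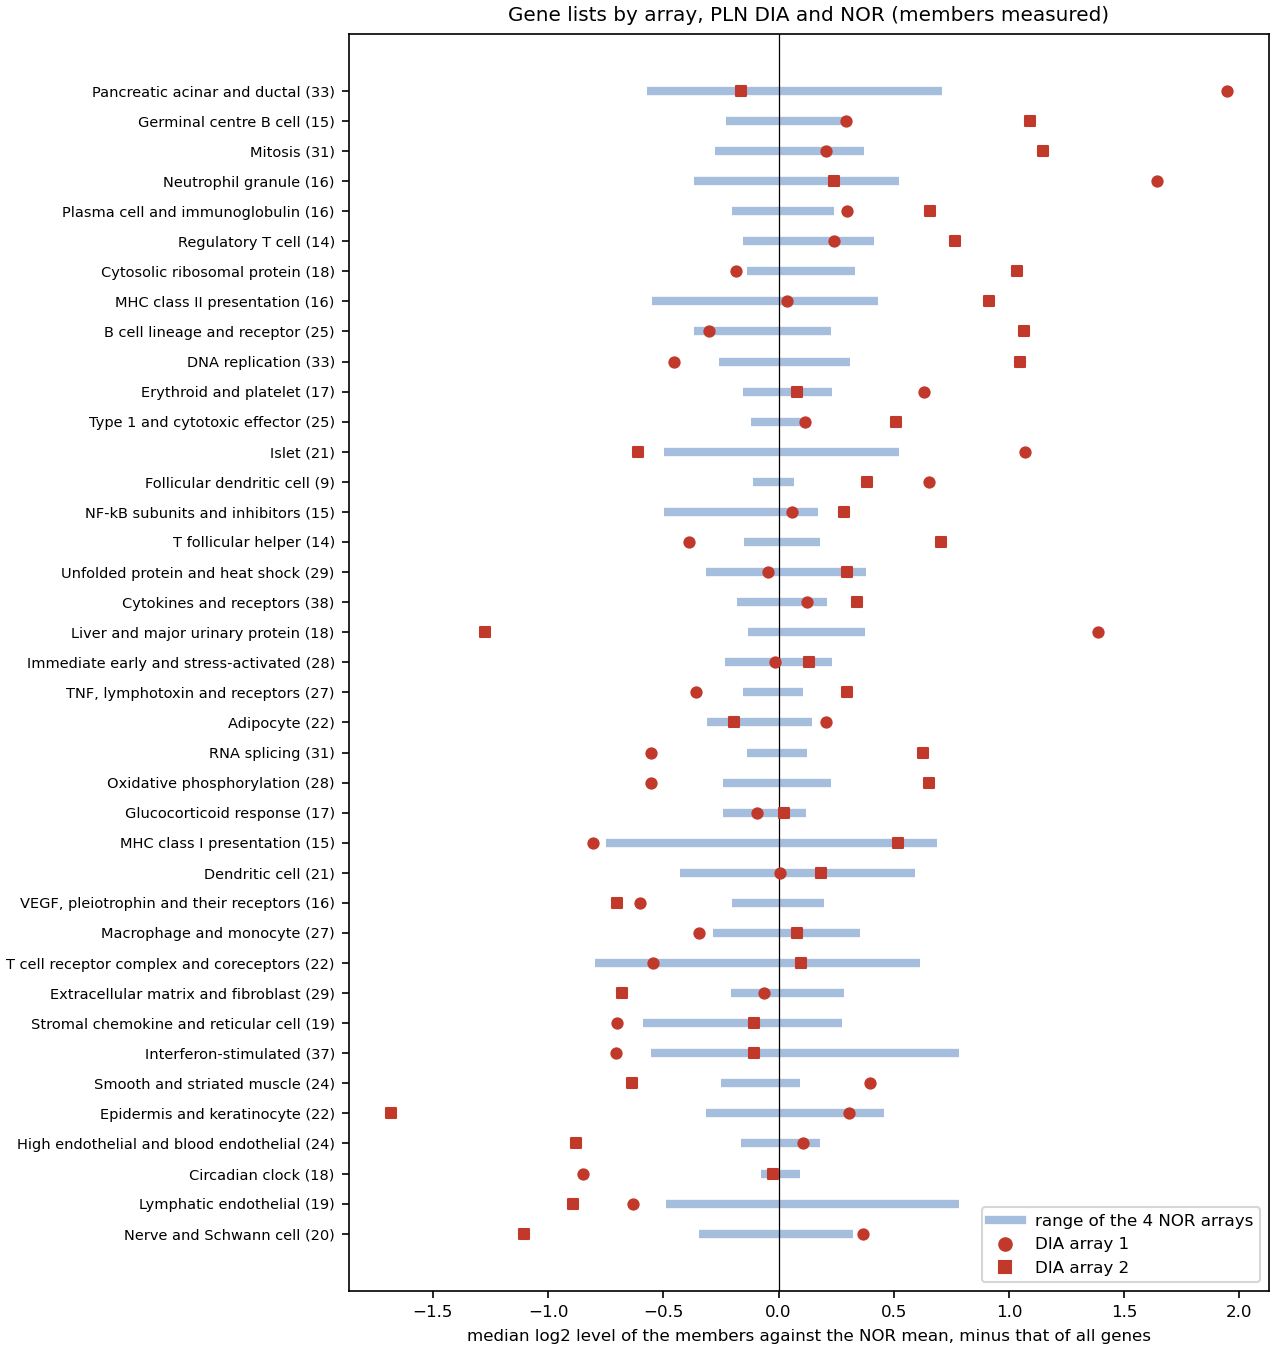
For each of 39 gene lists (members measured in brackets), the median over members of the log2 level against the NOR mean, minus that of all genes; bars give the range of the 4 NOR arrays, circles DIA array 1 and squares DIA array 2. Both DIA arrays lie above the NOR range for the plasma cell, follicular dendritic cell and, narrowly, type 1 effector lists. Both lie below it for the VEGF and lymphatic lists, while acinar, neutrophil and liver lists are highest in DIA array 1 alone.

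Early response genes had members past the thresholds in both directions, 4 of 28 higher (14.3%) and 5 lower (17.9%), with a median of 0.05. Jund, a subunit of the AP-1 factor, had signals of 7531, 7798, 8010 and 7044 in NOR and 12607 and 21249 in DIA (1.22, SE 0.39, adjusted p = 0.322). Gadd45b, a stress-induced growth arrest gene, had 723, 773, 454 and 388 in NOR and 1514 and 1471 in DIA (1.53, SE 0.48, adjusted p = 0.301). Klf4, a zinc finger factor, had 973, 250, 424 and 683 in NOR and 98.2 and 82.3 in DIA (-2.41, SE 0.72, adjusted p = 0.216). Of these, Jund and Gadd45b lay above and Klf4 below all NOR arrays in both DIA arrays. Rgs1, a regulator of G protein signalling, differed by 1.21, and Klf2, Egr3 and Btg2, which restrain or mark lymphocyte activation, by -1.20, -1.43 and -1.29. The other probe sets of Jund, Egr3 and Btg2 went the opposite way (-0.59, 1.07 and 0.80), while those of Gadd45b and Klf4 kept their direction.

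Genes of splicing were lower by the thresholds for 6 of 31 (19.4%) and higher for 1, with a median of -0.04. By overlap the balance differed. Both DIA arrays lay above all NOR arrays for 8 members and below them for 5, against 7.47% and 14.5% of all genes. Clk1, a kinase of splicing factors, had signals of 16815, 7943, 11221 and 12243 in NOR and 2499 and 4415 in DIA (-1.70, SE 0.52, adjusted p = 0.222), both DIA arrays below NOR. The member higher was Srsf10, a splicing factor. Sfpq, a splicing factor of paraspeckles outside the list, had 20830, 16979, 15410 and 17662 in NOR and 70204 and 49496 in DIA (1.85, SE 0.42, adjusted p = 0.151). On another Sfpq probe set, about as bright in NOR, the change was 0.34 and the groups overlapped. Signals there were 24897, 16944, 16053 and 19012 in NOR and 18375 and 26848 in DIA. Dimmer probe sets of Sfpq gave 0.53 and 0.52 with overlap, and up to 1.82 with both DIA arrays above all NOR arrays. U2af1 and Srsf6, which help choose splice sites, differed by -2.30 and -1.55, chiefly in DIA array 1, and without that array Srsf6 gave 0.17.

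Ribosomal protein genes were higher for 2 of 18 and lower for none, with a median of 0.56 that turned to -0.26 without DIA array 2. Rpl13a had signals of 67979, 35522, 31997 and 64327 in NOR and 187068 and 101717 in DIA (1.66, SE 0.56, adjusted p = 0.335), and Rps9 and Rpsa, named for their small p, differed by 1.95 and 2.05. Dimmer probe sets of Rpl13a, Rps9 and Rpsa went as low as -0.36, -0.64 and -0.55, while another of Rps9 gave 1.59. Oxidative phosphorylation genes had 1 of 28 past the thresholds in each direction and a median of -0.10, with a level of -0.56 in DIA array 1 and 0.65 in DIA array 2. Unfolded protein and heat shock genes had 2 of 29 higher, none lower and a median of 0.09. Clock genes had 3 of 18 lower (16.7%), the repressors Per2, Ciart and Bhlhe40 (-1.95, -2.94 and -1.28), none higher and a median of -0.58. For each of the 3 one DIA array lay inside the NOR range, and the list's level was -0.85 in DIA array 1 but -0.02 in DIA array 2, also inside it. Another probe set of Per2 gave 0.66. Of 17 glucocorticoid response genes none passed the thresholds in either direction, with a median of -0.12.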

How the data were processed

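RNA from pancreatic lymph nodes was hybridised to Affymetrix mouse arrays. The labels give Trizol extraction and describe both a NuGEN amplification and the standard Affymetrix protocol, and do not say which was used. The deposited values are linear MAS5 signals (an intensity per probe set), which the authors scaled so that the trimmed mean of each array was 500.0; no source used here gives its version. The study's own tests used RMA values with rank products, and those values were not used here. Array number and signal limit the precision.

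Signals under 1 (176 values in the 6 arrays) were set to 1 and log2 transformed, 64 control probe sets were left out, and limma 3.58.1 in R 4.3.3 (lmFit, eBayes with trend) was fitted to all 10 PLN arrays with a mean per group. The contrast was DIA minus NOR, with Benjamini-Hochberg adjustment over 45037 probe sets and a call at an adjusted p under 0.05. Probe sets that name several genes (932) or none (9160) stood for no gene. Symbols came from the platform annotation, updated through the gene IDs.

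Of 974 entries in 39 gene lists 869 were measured. The comparison, lists and rules were chosen with earlier results of these data known. Named genes are those with a called probe set, the 15 higher and 15 lower genes with the smallest p whose arrays did not overlap and whose higher group was at or above the median signal, up to 5 list members with the smallest p, and members whose role is needed. Lists were not tested as sets. The scripts were tested on simulated data. Alternatives were other scalings, floors, filters, arrays and fits, a replicate block, rank products and leaving out each array. Figures were drawn with matplotlib 3.10.9 in Python 3.11.15. Promoter windows came from RefSeq (GRCm38.p6).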

Additional observations from a re-analysis of the deposited data

Results flagged for a closer look

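Among the 4 NOR arrays, 6 of 124 named probe sets had 1 array whose gap to the nearest other, as a share of the group's range, exceeded Dixon's 95% critical value, and chance gives such a gap in about 1 in 20 groups. NOR array 4 stood above the others for Cxcl13 (signal 7034) and Nfkbie (21344). NOR array 1 stood above the others for Jchain (4241) and Eln (1832). NOR array 2 stood below the others for Efnb1 (336) and Nek2 (103). For Jchain and Cxcl13 both DIA arrays lay above the high NOR array too.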

How the results depend on the processing

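The count of called probe sets depended on the settings. It was 25 as reported, 362 with only the DIA and NOR arrays, 4 and 6 with filters on mean signal at the 40th and 60th percentile, 86 with quantile normalization, 39 with each array's floor at its 20th percentile, 57 with log2 of the signal plus 32, 17 after median centring, 48 with the common floor chosen after seeing the data, and 1 with 1 probe set per gene. Without a trend in eBayes limma called 0, while 4047 probe sets had an unadjusted p under 0.05 there and 4489 with the trend. Leaving out 1 array gave 3 (without AAT array 3) to 428 (without DIA array 2) calls, with 4 without NOR array 1, 5 without NOR array 4, 16 without NOR array 3, 10 without DIA array 1, 129 without AAT array 1 and 68 without AAT array 2. The cause was not tested. Of the 25 calls, all were shared by the fits without AAT array 1 or 2 and with only DIA and NOR arrays, 24 by quantile normalization and 3 by the common floor. The count past the study's thresholds, 4418, ranged from 3005 (without NOR array 4) to 6449 (quantile normalization), apart from 2220 with the filter at the 60th percentile, which tests fewer probe sets. Rank products, the study's kind of test, gave 5973. The share lower in DIA, 72.9%, was 54.9% by rank products, 58.5% after quantile normalization, 58.0% with the common floor, 62.5% when probe sets under the 60th percentile were dropped and 85.0% without DIA array 1. The median change of all probe sets, -0.11, was 0.05 after quantile normalization, -0.24 with the per-array floor, -0.30 without DIA array 1 and 0.22 without DIA array 2. Among named probe sets, 2 values changed sign: Ighm on 1427351_s_at (from -0.053 without DIA array 2 to 1.81 without DIA array 1) and Srsf6 (from -3.41 without DIA array 2 to 0.17 without DIA array 1). Of 2456 settings of named probe sets 2252 kept direction and side of the threshold. Only 11 of the 124 named probe sets were called, so for most of them keeping the side means staying uncalled. In settings other than leaving out 1 array, a call was lost in 42 and gained in 74. A low signal limits the change that can be read. With the replicate block 169 probe sets were called, including all 25, but the numbers share no stated origin: of 8 same-numbered pairs 6 had deviations correlated over 0.1 (-0.04 to 0.28), and 5 of 10 arrays matched their own number best.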
